A study of Homo sapiens with 6 samples.

Results

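The genes of the mitochondrial ribosome were examined in K562 cells, a human leukaemia cell line that carries the BCR::ABL1 fusion, by polyadenylated RNA sequencing. They were taken as every protein-coding gene whose symbol is MRPL or MRPS followed by a number. There are 78 such genes among 19498 in the deposited table, 49 named MRPL and 29 named MRPS. The libraries are 3 biological replicates of K562 cells labelled ACK KO and 3 of K562 cells labelled WT, with no other treatment in the labels. ACK is the tyrosine kinase encoded by TNK2, and the labels give neither the way it was knocked out nor whether the knockout cells are 1 clone or several. Whether the replicates came from separate cultures is likewise not stated, so each p-value reflects the spread of these libraries only, which may be technical.

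The mitochondrial ribosome translates the few messenger RNAs that the mitochondrial genome encodes, all of them for subunits of the respiratory chain and ATP synthase. Its ribosomal RNAs come from mitochondrial DNA, whereas all of its proteins are encoded in the nucleus, made in the cytosol and imported. MRPL proteins were named for the large subunit, which forms peptide bonds, and MRPS proteins for the small subunit, which reads the messenger. Part of each set descends from bacterial ribosomal proteins and the rest is specific to mitochondria.

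All values are read counts normalised by the authors, and differences are given as log2 of the KO-labelled over the WT level. Values sum to 43.5, 49.5 and 47.3 M in the KO-labelled libraries 1, 2 and 3 and to 46.7, 53.3 and 50.3 M in the WT libraries 1, 2 and 3. The read depth is unknown, so the errors given are the spread between libraries. TNK2 itself had 741, 506 and 598 normalised counts in KO-labelled libraries, against 829.7, 613 and 642 in WT libraries, a log2 difference of -0.18 (SE 0.21, limma adjusted p = 0.681, exact permutation p = 0.4, the smallest possible being 0.1). Its messenger therefore does not check the labels, since a knockout allele can still be transcribed. All 10 erythroid and K562 marker genes were present, and none passed the limma test, against 10.3% of all genes tested. Of the 10, 2 had an unadjusted p under 0.05, where 12.6% of all genes tested were higher and 11.2% lower. Once the replicate number was a block, a fit explained with MRPL22 below, 4 passed, against 39.7% of all genes tested. Of other cell types, 4 of 6 lymphoid markers had values, and they summed to between 1002 and 1778 in KO-labelled and between 509 and 1806 in WT libraries, nearly all of it CD3D. Likewise 4 of 8 epithelial and fibroblast markers had values, and they summed to between 4691 and 5286 in KO-labelled and between 4372 and 5185 in WT libraries, nearly all of it EPCAM. CD79A, CDH1 and COL3A1 were at 13.03 or lower in every library, and CDH1 was at 0 in KO-labelled replicate 2. COL1A1 rose, at 133 ± 65.7 in KO-labelled against 16.3 ± 14.3 in WT libraries (SD, n = 3 each; limma adjusted p = 0.0334), and the part of other cells in the results was not tested. Replicate 1 of both genotypes stood apart for the mitochondrial ribosome, as described further on. For genes among the 78 whose adjusted p is given singly, calls that it decides are given with and without it.

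Each of the 78 genes passed the filter on low values, and the lowest single value among them was 422 normalised counts, for MRPL55 in KO-labelled replicate 1. With 3 libraries per genotype, 3 of the 78 genes fell, namely MRPS30, MRPS27 and MRPS36, and 1 rose, MRPS33 (limma, Benjamini-Hochberg over 16658 genes, threshold 0.05). The other 74 did not pass the test. Over all genes tested, 4.96% fell and 5.37% rose, against 3.85% and 1.28% of the 78 genes, so the share of mitochondrial ribosomal genes past the threshold was no higher than that of genes at large. All 4 genes that passed lie on chromosomes 5 and 7. The promoters of MRPS30, MRPS27 and MRPS33 are printed here as those of genes that passed, without that of MRPS36, and those of MRPL46 and MRPS11 as a divergent gene pair on chromosome 15. Motifs searched in them are counted further on over the 69 of the 78 genes that matched a window.

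The windows run from 250 bases before the annotated RefSeq start to 30 bases from it onward, the start being base 1, and are written 5′ to 3′ on the strand of the gene, on GRCh38.p14. Capitals mark a match to AAGATGGC, the core of the YY1 motif, or to CCGGAAG, the core of the ETS motif, which reads CTTCCGG where it lies on the other strand. MRPS30 is at chr5:44808697-44808976 on the plus strand, and its match begins at base 14. MRPS27 is at chr5:72320211-72320490 on the minus strand, with its match from base 17. MRPS33 is at chr7:141014923-141015202 on the minus strand, the more upstream of 2 windows for the gene, and its match begins at base 1. MRPL46 is at chr15:88467359-88467638 on the minus strand, with its match from base 9. MRPS11 is at chr15:88467458-88467737 on the plus strand, so that its window overlaps that of MRPL46, and it holds none of the motifs searched.
MRPS30: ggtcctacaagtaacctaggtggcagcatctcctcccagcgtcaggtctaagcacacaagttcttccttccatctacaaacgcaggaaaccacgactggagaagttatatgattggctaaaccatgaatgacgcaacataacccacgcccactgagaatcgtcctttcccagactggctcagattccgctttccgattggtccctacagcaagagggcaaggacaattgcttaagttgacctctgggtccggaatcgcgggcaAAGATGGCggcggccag
MRPS27: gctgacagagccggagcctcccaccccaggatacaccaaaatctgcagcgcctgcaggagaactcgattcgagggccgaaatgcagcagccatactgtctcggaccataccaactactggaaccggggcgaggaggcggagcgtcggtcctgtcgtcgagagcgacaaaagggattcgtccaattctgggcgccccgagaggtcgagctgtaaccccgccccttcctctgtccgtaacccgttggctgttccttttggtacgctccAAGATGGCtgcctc
MRPS33: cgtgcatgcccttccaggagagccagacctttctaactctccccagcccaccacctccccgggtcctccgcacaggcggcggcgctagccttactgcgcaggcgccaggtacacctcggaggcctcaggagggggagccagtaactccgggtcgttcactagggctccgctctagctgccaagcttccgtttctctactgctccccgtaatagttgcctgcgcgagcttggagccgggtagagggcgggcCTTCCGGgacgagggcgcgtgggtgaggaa
MRPL46: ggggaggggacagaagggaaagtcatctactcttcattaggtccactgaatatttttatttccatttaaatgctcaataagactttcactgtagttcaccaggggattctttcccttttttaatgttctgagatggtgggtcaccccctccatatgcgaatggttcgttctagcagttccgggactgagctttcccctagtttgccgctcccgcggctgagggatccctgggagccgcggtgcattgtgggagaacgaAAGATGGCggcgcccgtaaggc
MRPS11: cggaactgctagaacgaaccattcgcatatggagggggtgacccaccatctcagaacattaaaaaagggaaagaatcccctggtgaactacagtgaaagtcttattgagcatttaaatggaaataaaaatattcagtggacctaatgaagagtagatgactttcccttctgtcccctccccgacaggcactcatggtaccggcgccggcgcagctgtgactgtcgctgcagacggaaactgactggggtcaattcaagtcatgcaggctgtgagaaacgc

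MRPS30, on chromosome 5 (GRCh38 chr5:44808925-44820428, plus strand), had the largest difference of the 78 genes. It encodes a protein that sits in the large subunit in spite of its name. KO-labelled libraries 1, 2 and 3 held 2409.6, 3201 and 3102 normalised counts, against 6091, 7729 and 7071 in the WT libraries. Every KO-labelled value lay far below every WT value. The means were 2904 ± 431 in KO-labelled and 6964 ± 824 in WT libraries (SD, n = 3 each), and the gene fell by 1.27 on the log2 scale (SE 0.16, 95% interval -1.65 to -0.88, limma adjusted p = 0.00446), or 2.40-fold.

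The divergent noncoding gene MRPS30-DT, whose annotated start lies 148 bases from that of MRPS30 and which was chosen after its values were seen, was lower as well. It had 61.5, 35.3 and 88.1 normalised counts in KO-labelled libraries, against 361, 269.7 and 306 in WT libraries. It fell by 2.41 on the log2 scale (SE 0.36, limma adjusted p = 0.00886). MRPS30 and MRPS30-DT were thus both lower in every KO-labelled library than in any WT library.

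MRPS27 (chr5:72219409-72320646, minus strand) encodes a pentatricopeptide repeat protein of the small subunit. It varied least between replicates among the chromosome 5 genes, with 3510.4, 3672 and 3662 normalised counts in KO-labelled libraries, against 6731, 7875 and 6717 in WT libraries. The genotypes did not overlap. MRPS27 fell by 0.97 on the log2 scale (SE 0.12, limma adjusted p = 0.00371). Its exons share 190 bases with PTCD2 on the opposite strand. The libraries were stranded per the labels, but whether counting used strand is not stated.

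MRPS36 (chr5:69217760-69230129, plus strand) was first described as a small-subunit protein and is now known as a subunit of the 2-oxoglutarate dehydrogenase complex. It had 635, 778 and 646 normalised counts in KO-labelled libraries, against 1142, 1714 and 1539 in WT libraries. The highest KO-labelled value was below the lowest WT value, and the gene fell by 1.08 on the log2 scale (SE 0.20, limma adjusted p = 0.0171). The call depended on single libraries, with a limma adjusted p of 0.0706 and 0.0884 on leaving out WT replicates 2 and 3 in turn, and of 0.0524 and 0.0872 on leaving out replicates 1 and 3 of the KO-labelled group.

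The other two genes on chromosome 5 missed the threshold. MRPL22 (chr5:154941070-154969411, plus strand), whose bacterial counterpart lines the peptide exit tunnel, had 847, 1228 and 1180.1 normalised counts in KO-labelled libraries, against 1568, 2791 and 2824 in WT libraries. The groups were separate, but WT replicate 1 lay well under the other WT libraries, and the log2 difference was -1.11 (SE 0.28, limma adjusted p = 0.0506). MRPL36 (chr5:1798386-1801366, minus strand), which encodes a short large-subunit protein with a bacterial counterpart, had 624, 1179 and 999 normalised counts in KO-labelled libraries, against 1046, 2179 and 2181 in WT libraries. Here KO-labelled replicate 2 overlapped WT replicate 1, and the log2 difference was -0.92 (SE 0.36, limma adjusted p = 0.183).

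MRPL22 and MRPL36 both passed once the replicate number was kept as a block. Same-numbered libraries of the 2 genotypes deviate together, most clearly those of number 1, so this fit compares KO-labelled with WT within each number. It gave an adjusted p of 2.23e-04 for MRPL22 and of 5.75e-04 for MRPL36 (limma with block). Without WT replicate 1 both also passed with no block, at a limma adjusted p of 0.00833 for MRPL22 and of 0.0321 for MRPL36, and without replicate 1 of both genotypes it was 1.91e-04 for MRPL22 and 0.00105 for MRPL36. Without replicate 1 of the KO-labelled group alone neither passed, at 0.125 for MRPL22 and 0.363 for MRPL36.

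**Figure D1:**
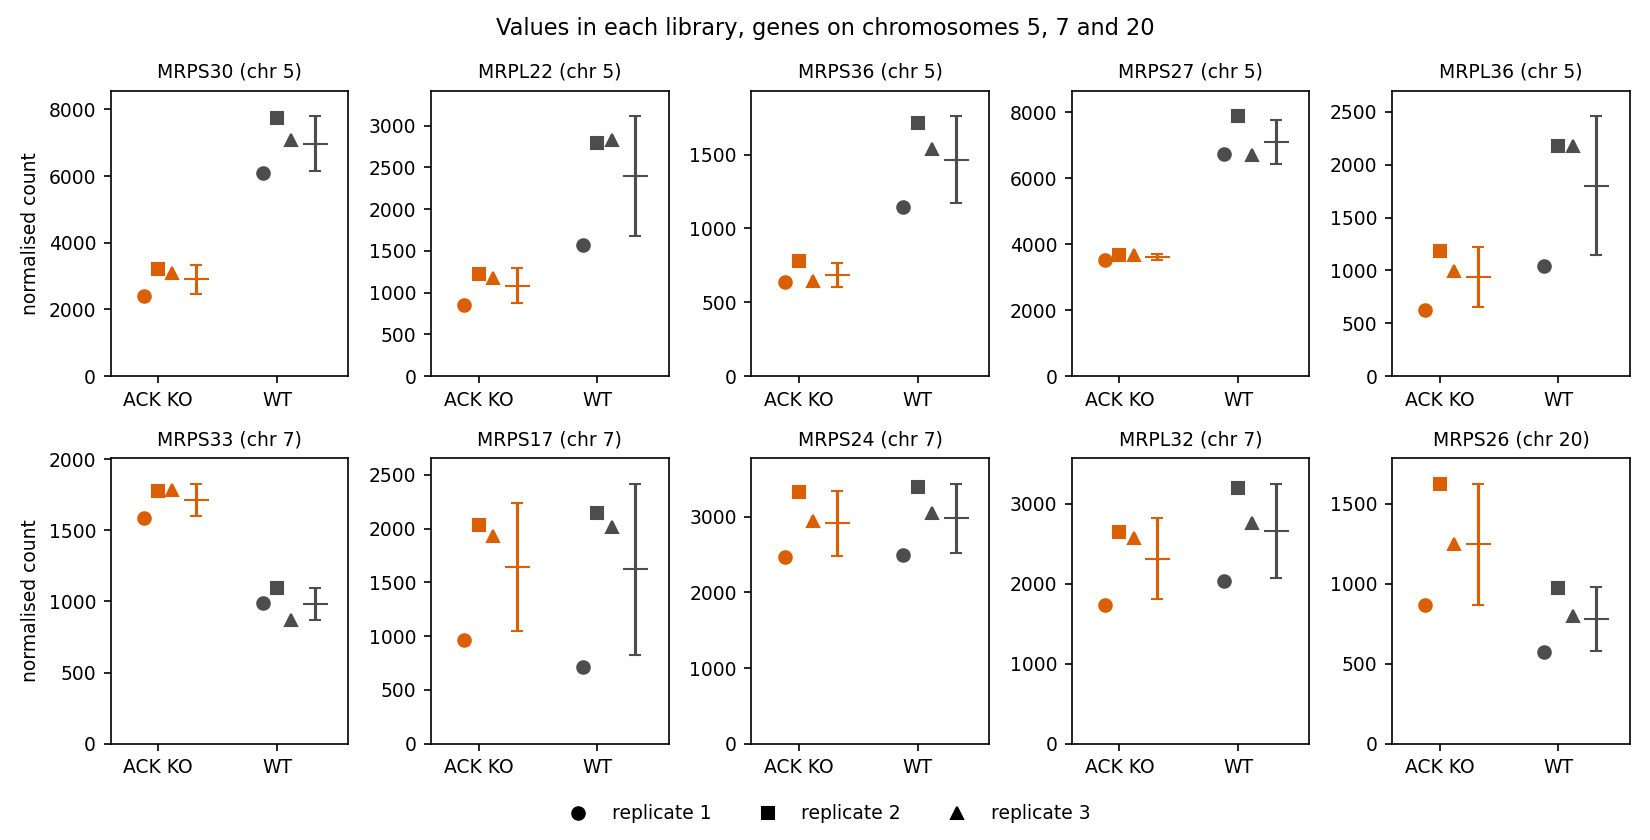
Normalised counts (vertical axis, starting at 0, a separate scale per gene) in the 3 ACK KO libraries, left, and the 3 WT libraries, right, for the 10 genes on chromosomes 5, 7 and 20. Symbols mark the replicate number and the cross with bars gives the mean and SD. MRPS30, MRPL22, MRPS36 and MRPS27 are lower in every ACK KO library than in any WT library, MRPS33 is higher in every one, and in most panels replicate 1 is the lowest of its group.

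Genes around these 5 were lower too. The median log2 difference of the 693 genes tested on chromosome 5 was -0.62, and that of the 5 mitochondrial ribosomal genes was -1.08. Of the 693, 28.1% fell without a block and 67.4% with it (limma), beside 3 and all 5 of the mitochondrial ribosomal genes. For the 20 or fewer tested genes nearest to each, 10 on a side, the median log2 difference was -0.44 around MRPS30, -0.57 around MRPL22, -0.60 around MRPS36, -0.59 around MRPS27 and -0.62 around MRPL36. All 5 genes were lower than the median of their neighbours. When each library was centred on the median of each chromosome, without the block, MRPS30 alone of the 78 genes passed. MRPS27 then had a limma adjusted p of 0.0833 and MRPS36 one of 0.169. With centring and the block together, a fit chosen after the data were seen, all 5 genes fell. In that fit 20.7% of all genes tested fell and 15.1% rose. A difference in chromosome copy number between the cells was not tested.

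MRPS33 (chr7:141002610-141015228, minus strand) encodes a mitochondria-specific protein of the small subunit. Over all 6 libraries it was the only one of the 78 genes to rise without a block. It had 1585, 1774 and 1784 normalised counts in KO-labelled libraries, against 991, 1094 and 869 in WT libraries. The lowest KO-labelled value exceeded the highest WT value. The means were 1714 ± 112 in KO-labelled and 985 ± 112 in WT libraries (SD, n = 3 each), a rise of 0.80 on the log2 scale (SE 0.15, limma adjusted p = 0.0167). The call was lost without WT replicate 3 (limma adjusted p = 0.0827) and without replicate 2 or 3 of the KO-labelled group (0.0754 and 0.0949). It was also lost after chromosome centring without the block (0.22). With centring and the block together, a fit chosen after the data were seen, MRPS33 passed.

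The other 3 genes on chromosome 7 did not pass the test over all 6 libraries, without the block or with it. MRPS17, a counterpart of a bacterial small-subunit protein, had 959.99, 2035 and 1935 normalised counts in KO-labelled libraries, against 709, 2142 and 2014 in WT libraries. The groups overlapped almost fully, with a log2 difference of 0.10 (SE 0.49, 95% interval -1.07 to 1.27, limma adjusted p = 0.931). The median of its neighbours was 0.45. MRPS17 shares 471 exon bases on the same strand with an unnamed gene. MRPS24, a small-subunit protein with a bacterial counterpart, had 2469, 3323 and 2943 normalised counts in KO-labelled libraries, against 2494, 3398 and 3044 in WT libraries. Its log2 difference was -0.03 (SE 0.17, 95% interval -0.44 to 0.38), where its neighbours had a median of 0.43. It shares 606 exon bases with a readthrough gene, URGCP-MRPS24, and how reads were split between them was not tested. MRPL32, a large-subunit protein that a mitochondrial protease must cut before it joins the ribosome, had 1731, 2639 and 2570.2 normalised counts in KO-labelled libraries, against 2029.7, 3189 and 2759 in WT libraries. Its log2 difference was -0.20 (SE 0.24, 95% interval -0.76 to 0.36), and the median of its neighbours was 0.31. The intervals of MRPS17 and MRPL32 thus hold the median of their neighbours, and that of MRPS24 lies below it. When chromosome centring was added to the block, MRPS24 and MRPL32 fell and MRPS17 did not pass. Over chromosome 7 the median of 834 tested genes was 0.39, and that of the 4 mitochondrial ribosomal genes was 0.03.

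MRPS26, a mitochondria-specific small-subunit protein, was the only one of the 78 on chromosome 20. It had 865, 1621 and 1248 normalised counts in KO-labelled libraries, against 572, 969.8 and 795 in WT libraries. KO-labelled replicate 1 lay among the WT values, but within each replicate number the KO-labelled library was higher, and the log2 difference was 0.66 (SE 0.29, limma adjusted p = 0.23, with the block 0.00149). Without replicate 1 of both genotypes MRPS26 passed as well, at a limma adjusted p of 0.0185. It did not pass without WT replicate 1 alone or KO-labelled replicate 1 alone (0.313 and 0.116). The 393 tested genes of that chromosome had a median of 0.54.

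MRPL46 and MRPS11 are a divergent pair on chromosome 15, with starts 34 bases apart on opposite strands in GENCODE, while RefSeq places that of MRPS11 further into the gene. MRPL46 belongs to the large subunit and MRPS11 is the counterpart of a bacterial small-subunit protein, so genes of both subunits start from 1 stretch of sequence. MRPL46 had 1030.4, 1333 and 1248 normalised counts in KO-labelled libraries, against 676, 1241 and 969 in WT libraries. MRPS11 had 1053, 1686 and 1495 normalised counts in KO-labelled libraries, against 636, 1359 and 1146 in WT libraries. The groups overlapped for both genes, and each was higher in the KO-labelled library of every replicate number. The log2 differences were 0.36 for MRPL46 (SE 0.25, limma adjusted p = 0.45, with the block 0.0442) and 0.47 for MRPS11 (SE 0.32, adjusted p = 0.446, with the block 0.0123). Without replicate 1 of both genotypes, and with no block, neither passed, at a limma adjusted p of 0.257 for MRPL46 and 0.0808 for MRPS11. MRPL46 shares 724 exon bases on the same strand with an unnamed gene of mean 109.7 in KO-labelled and 81.5 in WT libraries.

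**Figure D2:**
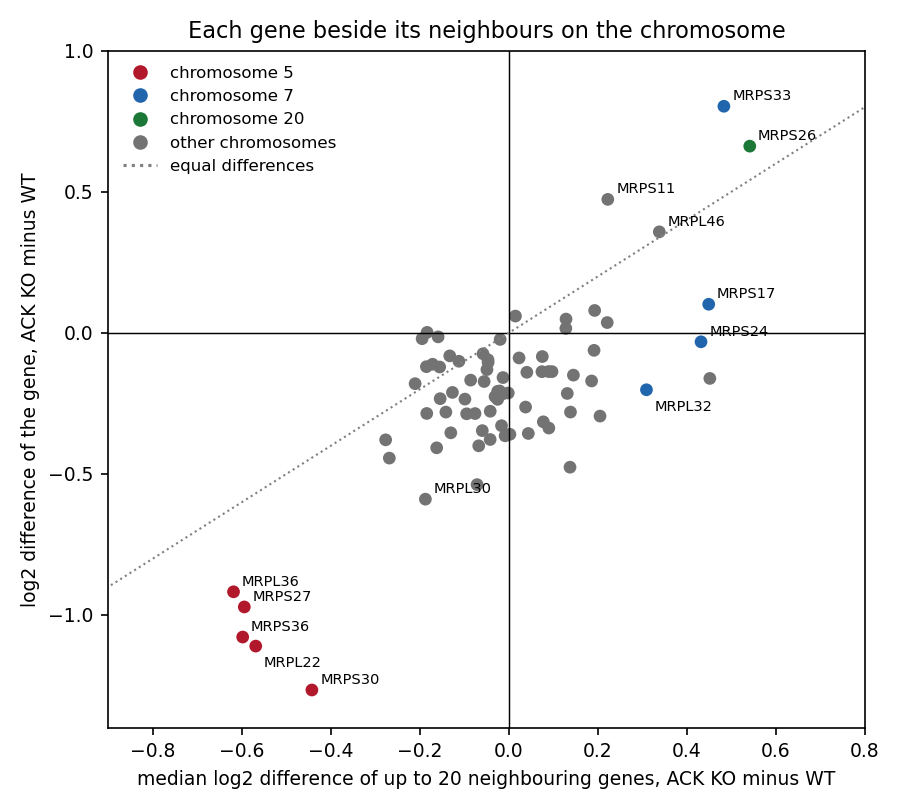
Log2 difference, ACK KO minus WT, of each of the 78 genes (vertical axis) against the median log2 difference of up to 20 tested genes around it (horizontal axis). The 5 chromosome 5 genes sit at the lower left, below the dotted line of equal differences, while MRPS17, MRPS24 and MRPL32 on chromosome 7 sit well below that line.

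Across the 78 genes, the difference of a gene and the median difference of its neighbours had a Pearson r of 0.75 and a Spearman rho of 0.47. Without chromosomes 5, 7 and 20 these were 0.38 and 0.25 over 68 genes. Neighbouring genes come from the same libraries, and the points are given as a description.

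Apart from chromosomes 5, 7 and 20, differences of single genes were small and mostly of the same sign. The median log2 difference of all 78 genes was -0.20, against -0.02 over all genes tested and over the 12757 protein-coding genes tested. Of the 78 genes, 67 lay below 0 (85.9%), against 51.6% of all genes tested. Of the 68 genes on the remaining chromosomes, 60 lay below 0, their median was -0.19 against -0.03 for all genes tested there, and none passed the test (limma), with 6 lower (8.82%) and 0 higher at an unadjusted p under 0.05, beside 9.87% lower and 10.9% higher of all genes tested there. The median of all 78 was -0.14, -0.26 and -0.24 within replicate numbers 1, 2 and 3. Without KO-labelled replicate 1 it was close to 0, at -0.0034, and without WT replicate 1 it was -0.42. Without replicate 1 of both genotypes it was -0.25.

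Counting separated groups gave the following. In 13 of the 78 genes (16.7%) every KO-labelled value was below every WT value, and 14.7% of all genes tested behaved so, which is a similar share. In 1 gene, MRPS33, every KO-labelled value was above every WT value, against 15.2% of all genes tested. The 13 are MRPS30, MRPL22, MRPS36 and MRPS27 on chromosome 5, then MRPL30, MRPS5, MRPS9, MRPS10, MRPS35, MRPL48, MRPL58, MRPL45 and MRPL10 elsewhere. The groups overlapped in the other 64 genes.

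Within replicate numbers the picture was more one-sided. The KO-labelled library was the lower in all 3 numbers for 48 of the 78 genes (61.5%), against 34.0% of all genes tested, and the higher in all 3 for 4 genes (5.13%), against 31.8%. The remaining 26 were mixed. The KO-labelled library was lower for 50 genes in number 1, for 72 in number 2 and for 70 in number 3.

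With the replicate number as a block, 32 of the 78 genes fell (41.0%) and 4 rose (5.13%), where 20% of all genes tested fell and 19.7% rose (limma with block). The 4 that rose were MRPL46, MRPS11, MRPS26 and MRPS33. Off chromosomes 5, 7 and 20, 27 of 68 genes fell (39.7%) and 2 rose (2.94%), beside 19.2% and 17.1% of all genes tested there. The 21 MRPL genes that fell with the block were, from the largest difference down, MRPL22, MRPL36, MRPL30, MRPL47, MRPL50, MRPL1, MRPL35, MRPL34, MRPL4, MRPL18, MRPL48, MRPL52, MRPL58, MRPL3, MRPL45, MRPL38, MRPL37, MRPL44, MRPL42, MRPL9 and MRPL15. The 11 MRPS genes were MRPS30, MRPS36, MRPS27, MRPS5, MRPS31, MRPS9, MRPS10, MRPS25, MRPS35, MRPS21 and MRPS22. The share of genes that fell was thus larger among mitochondrial ribosomal genes than among all genes tested in the blocked fit and not in the fit without the block. Leaving out replicate 1 of both genotypes, with no block, 27 of the 78 genes fell (34.6%) and 2 rose (2.56%), where 13.8% of all genes tested fell and 14.6% rose (limma).

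**Figure D3:**
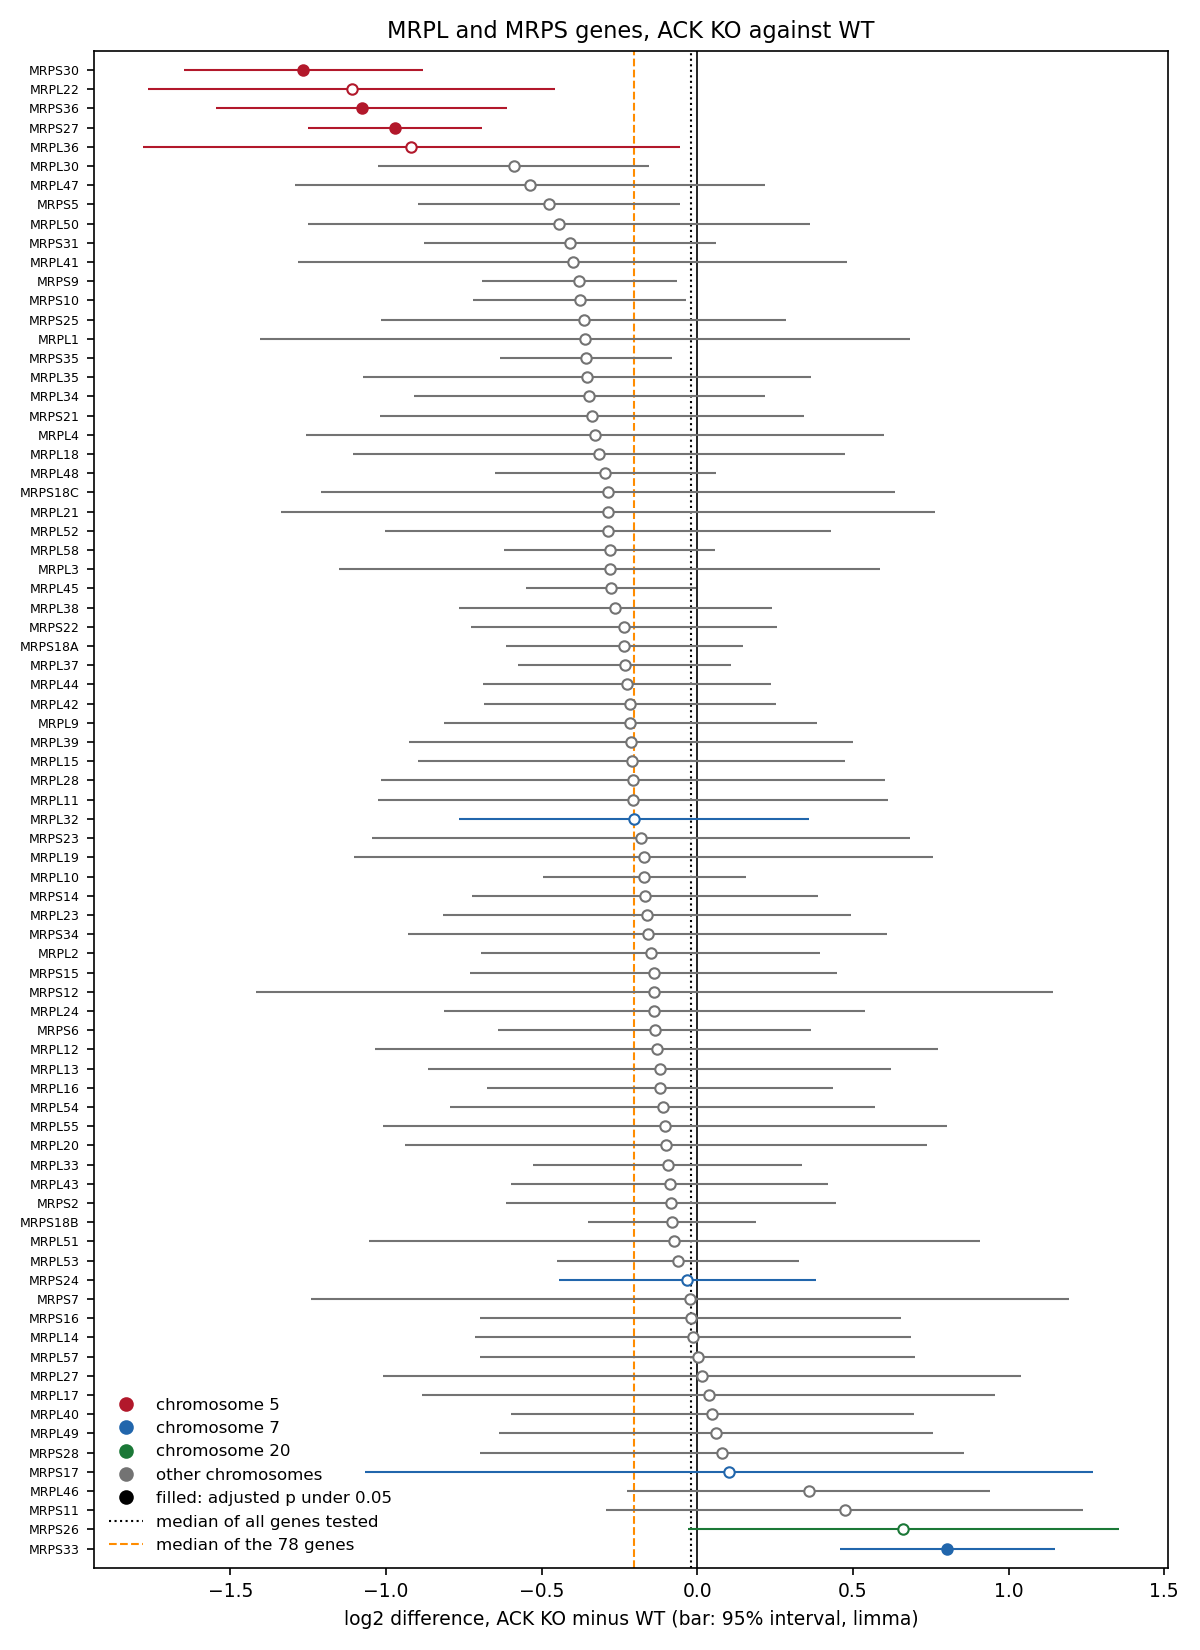
Log2 difference, ACK KO minus WT, of the 78 genes in order, with 95% intervals from limma and filled points for an adjusted p under 0.05 without a block. The dashed line is the median of the 78 genes at -0.20 and the dotted line that of all genes tested at -0.02. Most points lie to the left of 0, and the 5 genes of chromosome 5 lie farthest left.

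Off chromosomes 5, 7 and 20, MRPL30, a large-subunit protein with a bacterial counterpart, differed most. Among the 78 genes it had the highest mean normalised count before correction for length. It had 4989, 6890.2 and 6880 normalised counts in KO-labelled libraries, against 7824, 10382 and 9922 in WT libraries. The groups were separate. The log2 difference was -0.59 (SE 0.18, limma adjusted p = 0.0991, with the block 4.09e-04). It passed with no block without WT replicate 1 and without replicate 1 of both genotypes, at a limma adjusted p of 0.0480 and 0.00267, but not without replicate 1 of the KO-labelled group alone (0.194). MRPL30 shares exons on the same strand with 2 unnamed genes, and how reads were split among them was not tested.

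Next came genes chosen after their values were seen. MRPS5, the counterpart of a bacterial protein at the messenger entry of the small subunit, had 2500.5, 3179 and 3016 normalised counts in KO-labelled libraries, against 3248, 4648 and 4277 in WT libraries. Its log2 difference was -0.48 (SE 0.18, limma adjusted p = 0.16, with the block 0.00197), and it passed with no block without WT replicate 1 (0.0423) and without replicate 1 of both genotypes (0.00550). Without replicate 1 of the KO-labelled group alone MRPS5 did not pass (limma adjusted p = 0.322). MRPS35, a mitochondria-specific small-subunit protein, had 4062, 4628 and 4513 normalised counts in KO-labelled libraries, against 5287, 5894 and 5716 in WT libraries. Its log2 difference was -0.36 (SE 0.12, adjusted p = 0.114, with the block 0.00365, and without replicate 1 of both genotypes 0.0187). MRPS35 did not pass without WT replicate 1 alone or KO-labelled replicate 1 alone, at a limma adjusted p of 0.0821 and 0.232. MRPS5 and MRPS35 were lower in every KO-labelled library than in any WT library, by less than the chromosome 5 genes. MRPL58, a large-subunit protein that can also free stalled peptides from their transfer RNA, had 1148, 1248 and 1184 normalised counts in KO-labelled libraries, against 1287, 1637 and 1445 in WT libraries, and a log2 difference of -0.28 (SE 0.14, adjusted p = 0.298, with the block 0.0388). Without replicate 1 of both genotypes, and with no block, MRPL58 did not pass, at a limma adjusted p of 0.0588.

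The 49 MRPL genes had a median log2 difference of -0.21, with 43 below 0, none past the test without a block (limma, 4 lower at an unadjusted p under 0.05), and 21 that fell and 1 that rose with it. The 29 MRPS genes had a median of -0.17, with 24 below 0, 3 that fell and 1 that rose without a block, and 11 that fell and 3 that rose with it. Below 0 were 87.8% of MRPL and 82.8% of MRPS genes, against 51.6% of all genes tested. At an unadjusted p under 0.05 (limma), 8.16% of MRPL and 24.1% of MRPS genes were lower, against 11.2% of all genes tested. Without a block 10.3% of MRPS genes fell and 3.45% rose, against 4.96% and 5.37%. The 3 that fell all lie on chromosome 5, where 28.1% of the 693 genes tested fell without a block. At an unadjusted p under 0.05, 52.4% of the genes tested there were lower (limma). Off chromosomes 5, 7 and 20 none of the 68 genes passed without a block. With the block 42.9% of MRPL and 37.9% of MRPS genes fell, against 20%, and 2.04% and 10.3% rose, against 19.7%. By ancestry, the median was -0.21 for the 29 MRPL genes with a bacterial counterpart and also -0.21 for the 20 without one. It was -0.14 for the 18 MRPS genes with a bacterial counterpart and -0.36 for the 11 without one, a set that holds MRPS27, MRPS30 and MRPS36. The differences between these medians were not tested.

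The MRPS18 paralogs, 3 related genes whose products take different places in the ribosome, did not pass the test over all 6 libraries. MRPS18A, which joins the large subunit, averaged 1789 ± 254 normalised counts in KO-labelled and 2098 ± 221 in WT libraries, a log2 difference of -0.23 (SE 0.16, limma adjusted p = 0.447). MRPS18B averaged 4797 ± 363 in KO-labelled and 5067 ± 101 in WT libraries, a log2 difference of -0.08 (SE 0.11, adjusted p = 0.737). MRPS18C averaged 1383 ± 359 in KO-labelled and 1783 ± 774 in WT libraries, a log2 difference of -0.29 (SE 0.39, adjusted p = 0.729). None of the paralogs passed with the block either. Without replicate 1 of both genotypes MRPS18C did pass, with a log2 difference of -0.50 (limma adjusted p = 0.0332), and without 1 library its log2 difference lay between -0.71 and -0.011. It did not pass without WT replicate 1 alone or KO-labelled replicate 1 alone (0.115 and 0.946).

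Replicate 1 stood apart from replicates 2 and 3 in both genotypes. It was the lowest of the KO-labelled libraries for 75 of the 78 genes (96.2%) and the lowest of the WT libraries for 73 (93.6%), against 41.9% of all genes tested in KO-labelled and 42.4% in WT libraries. The log2 difference of replicate 1 from the mean of replicates 2 and 3 had a median of -0.58 in KO-labelled and -0.75 in WT libraries, against 0.02 in KO-labelled and 0.03 in WT libraries over all genes tested. It ranged over the 78 genes from -1.22 to 0.16 in KO-labelled and from -1.63 to 0.33 in WT libraries. No test was made of this, since the labels do not say what the replicate numbers stand for.

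The deviation of a gene was alike in both genotypes. Across the 78 genes, the replicate 1 differences of KO-labelled and WT libraries had a Pearson r of 0.83 and a Spearman rho of 0.80, against 0.70 and 0.76 over all genes tested. Over the protein-coding genes tested these were 0.75 and 0.80, so the rho of the 78 genes was no higher. MRPS12, which lies at the decoding site and whose bacterial counterpart governs reading accuracy, had 581, 1481 and 1246 normalised counts in KO-labelled libraries, against 530.1, 1746 and 1543 in WT libraries. Its replicate 1 lay by -1.22 in KO-labelled and by -1.63 in WT libraries from the others on the log2 scale, while its log2 difference between genotypes was only -0.14. MRPS7, a protein of the head of the small subunit, had 1576, 3878 and 3232 normalised counts in KO-labelled libraries, against 1343, 4279 and 3608 in WT libraries, with replicate 1 differences of -1.17 in KO-labelled and -1.55 in WT libraries. MRPS17 was similar, at -1.05 in KO-labelled and -1.55 in WT libraries. These 3 genes had the largest SD within genotypes of the 78, at 0.84, 0.80 and 0.76 on the log2 scale for MRPS12, MRPS7 and MRPS17, and a median of 0.41 over all 78 against 0.33 over all genes tested.

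Only MRPL10, MRPL45 and MRPL48 were not lower in replicate 1 of either genotype. MRPL10 forms the base of the stalk that recruits translation factors, and MRPL45 lies at the tunnel exit facing the inner membrane, while MRPL48 belongs to the central protuberance of the large subunit. Their replicate 1 differences were 0.05 in KO-labelled and 0.33 in WT libraries for MRPL10, 0.16 in KO-labelled and 0.08 in WT libraries for MRPL45, and 0.16 in KO-labelled and 0.17 in WT libraries for MRPL48. All 3 were among the genes whose genotypes did not overlap, and they were chosen after their values were seen.

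**Figure D4:**
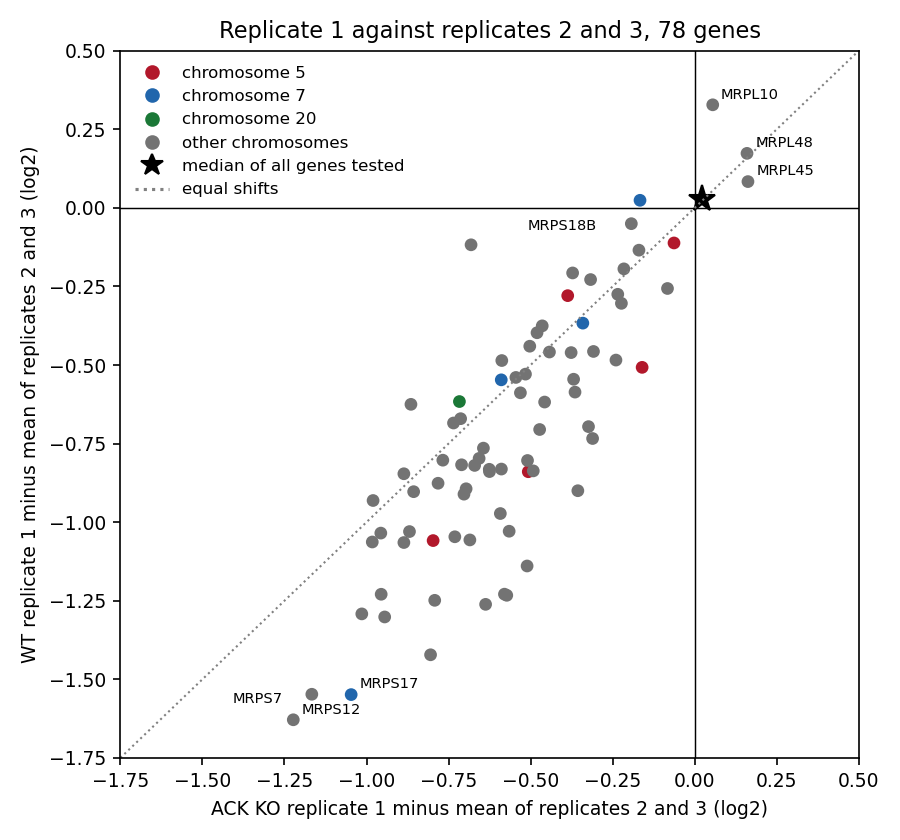
Log2 difference of replicate 1 from the mean of replicates 2 and 3 in the ACK KO libraries (horizontal axis) and in the WT libraries (vertical axis) for each of the 78 genes, with the median of all genes tested as a star. Nearly all points lie to the lower left of 0, down to -1.22 and -1.63 for MRPS12, while MRPL10, MRPL45 and MRPL48 lie to the upper right.

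The replicate 1 difference had a median of -0.64 in KO-labelled and -0.80 in WT libraries over the 49 MRPL genes, and of -0.47 in KO-labelled and -0.59 in WT libraries over the 29 MRPS genes. Summed over all 78 genes, mitochondrial ribosomal messengers made up 3466, 4568 and 4396 in each M of normalised counts in KO-labelled libraries, against 3695, 5258 and 5047 in WT libraries. Replicate 1 was lowest in both genotypes, and the KO-labelled library was the lower one within each replicate number. The means were 4143 ± 593 in KO-labelled and 4667 ± 848 in WT libraries (SD, n = 3 each), and the genotypes overlapped. In bulk RNA, less messenger in every cell and fewer cells with much of it cannot be told apart.

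In levels per length, the 78 messengers spanned about an order of magnitude. Per kb of the principal transcript, MRPL20 had 4129.7 normalised counts in KO-labelled and 4539 in WT libraries, MRPS24 had 4118 in KO-labelled and 4213 in WT libraries, and MRPL18 had 3686 in KO-labelled and 4567 in WT libraries. All 3 have bacterial counterparts. At the low end, MRPS11 had 387 per kb in KO-labelled and 287 in WT libraries, MRPL17 had 461 in KO-labelled and 454 in WT libraries, and MRPL57 had 499 in KO-labelled and 502 in WT libraries. Whether neighbours in this order differ was not tested. The order depends on the transcript length used: with the length of all exons joined, MRPL20 ranked 29 and MRPL18 ranked 3 of 78. Not corrected for length, MRPL30 (7814 as the mean over all libraries), MRPL3 (6482), MRPS16 (5943) and MRPL37 (5402) had the highest normalised counts, and MRPL55 (724), MRPL53 (746) and MRPL43 (753) the lowest.

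**Figure D5:**
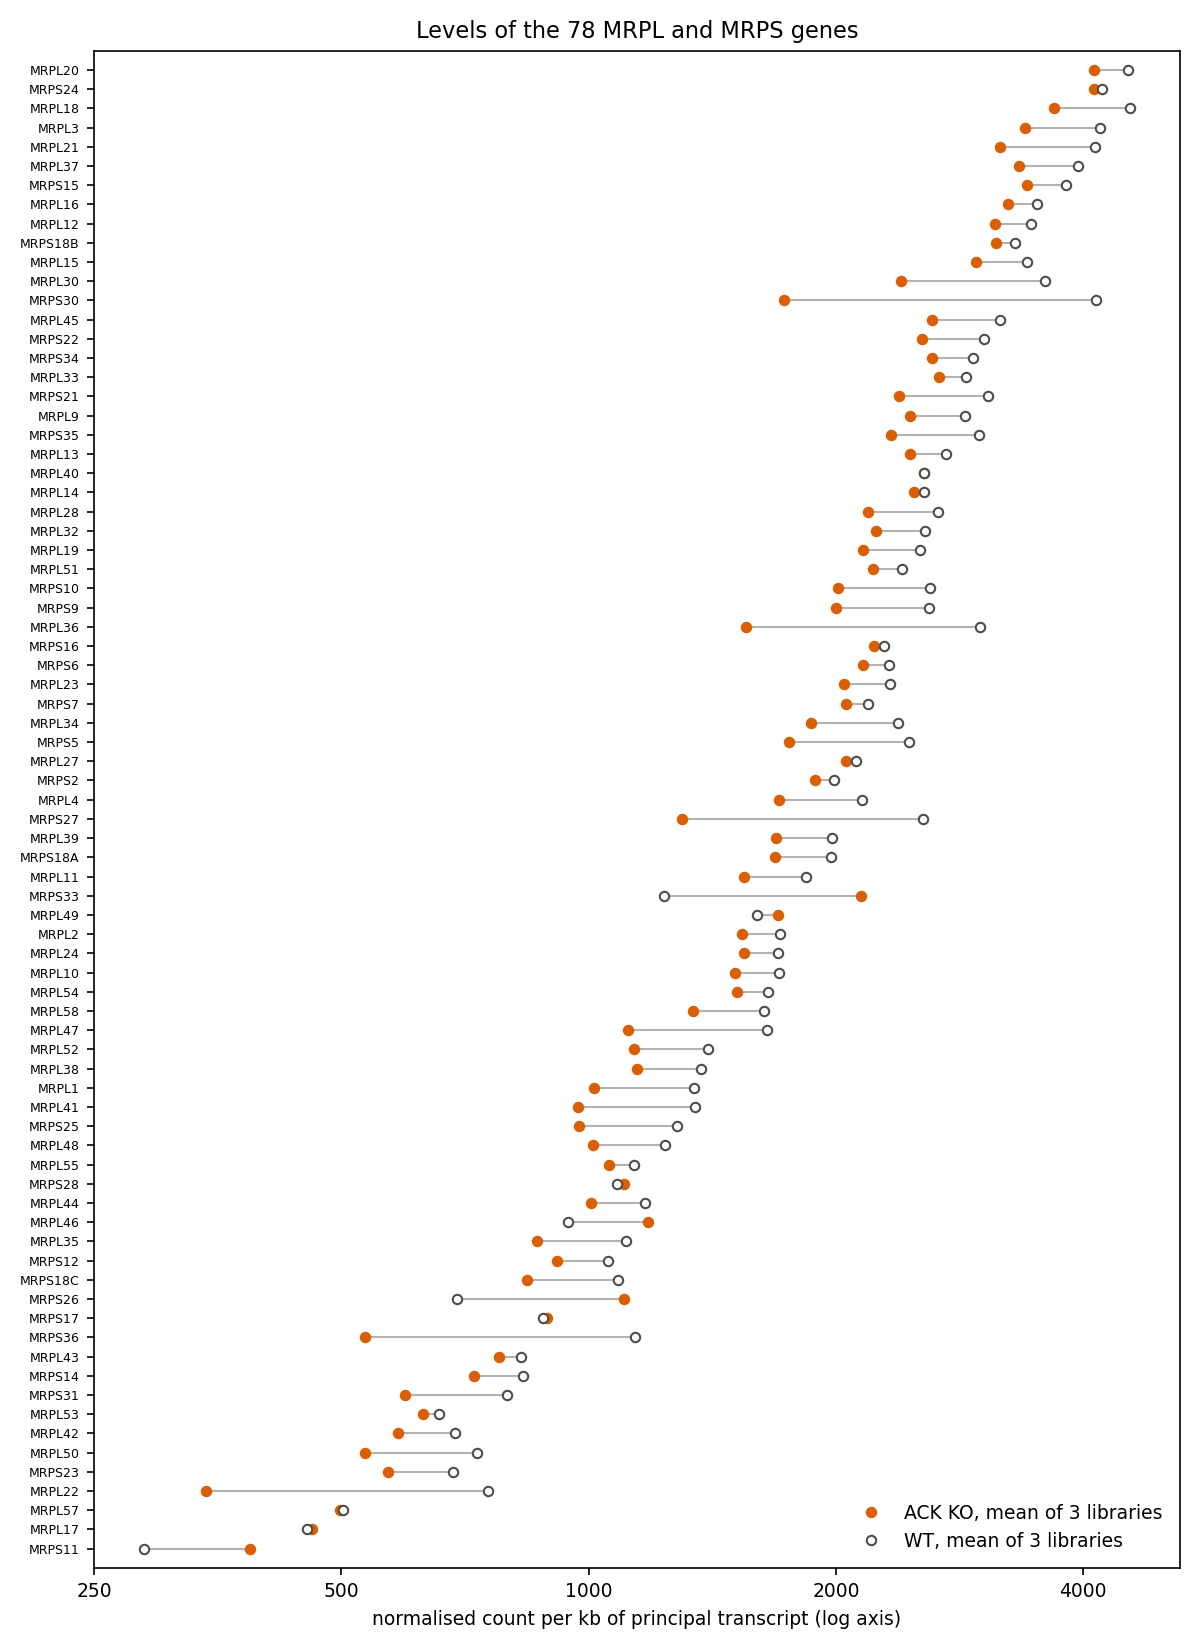
Mean normalised count per kb of the principal transcript (log axis) of the 78 genes in the ACK KO libraries (filled) and the WT libraries (open), ordered by the mean of both. MRPL20, MRPS24 and MRPL18 stand at the top and MRPS11 at the bottom, and most filled points lie to the left of the open ones.

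Of the 78 genes, 69 matched a promoter window in RefSeq, which runs from 250 bases before to 50 after the start. CCGGAAG on either strand occurred in 30 of the 69 (43.5%), against 22.1% of the 11152 tested genes with a window and 10.3% of all 35116 windows. AAGATGGC occurred in 21 (30.4%), against 6.40% and 2.89%, and GCGCATGC, the core of the NRF1 motif, in 6 (8.70%), against 6.50% and 3.05%. The motifs were chosen after promoters had been read, and the letters were searched without regard to factor binding. Genes with AAGATGGC had a median log2 difference of -0.23 and those without of -0.18, while for CCGGAAG these were -0.19 and -0.21 and for GCGCATGC -0.24 and -0.21. The medians of genes with and without each motif lay close together, and the differences between them were not tested.

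The other components of the system were read from lists of related genes. Beside the counts of each list below, 4.96% of all genes tested fell and 5.37% rose without a block (limma). With the block 20% fell and 19.7% rose. At an unadjusted p under 0.05 without a block, 11.2% were lower and 12.6% higher. A list of 6 genes held mitochondrial ribosomal protein genes with other names, DAP3, AURKAIP1, CHCHD1, PTCD3 and GADD45GIP1, and the insertase OXA1L. The 6 had a median log2 difference of -0.25 and were all below 0. None of them passed the limma test without a block, and OXA1L alone was lower at an unadjusted p under 0.05. With the block 4 fell, OXA1L among them. DAP3, a GTP-binding protein of the small subunit, averaged 9094 ± 1245 normalised counts in KO-labelled and 10977 ± 1213 in WT libraries (limma adjusted p = 0.338, with the block 0.00893). OXA1L, the insertase counted with these genes here, inserts new proteins into the inner membrane and had a log2 difference of -0.30 (adjusted p = 0.163, with the block 0.0169).

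Of 30 genes for ribosome assembly and ribosomal RNA processing, 1 rose and 1 fell, around a median of 0.03. With the block 7 rose and 7 fell, where 19.7% of all genes tested rose and 20% fell. RMND1, an inner membrane protein needed for mitochondrial translation, fell to 1331 ± 30.6 normalised counts in KO-labelled, against 2091 ± 91.97 in WT libraries (limma adjusted p = 0.0165). YBEY, an endoribonuclease, rose to 505 ± 29.4 in KO-labelled, against 313 ± 27.4 in WT libraries (adjusted p = 0.0472). Its call was lost without any single library, with adjusted p from 0.0617 to 0.182, and with no filter on low values (0.0502), and that of RMND1 without replicates 2 or 3 of either genotype, at 0.0715 to 0.0838. Assembly genes were lower in replicate 1 as well, with medians of -0.55 in KO-labelled and -0.66 in WT libraries.

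Of 20 translation factors, 1 fell, GFM2, which recycles the ribosome and lies on chromosome 5. It averaged 2002 ± 164 normalised counts in KO-labelled and 3433 ± 632 in WT libraries (limma adjusted p = 0.037), and the call was lost when any 1 library other than WT replicate 1 was left out, at up to 0.156, and with no intensity trend (0.0674). With the block 5 of the list fell and 1 rose, where 20% of all genes tested fell and 19.7% rose, and its median was -0.05. Of 18 genes for mitochondrial DNA expression and maintenance 1 rose, MGME1, a nuclease encoded on chromosome 20, at 2864 ± 163 in KO-labelled against 2022 ± 128 in WT libraries (adjusted p = 0.045), a call likewise lost without any 1 library other than WT replicate 1, at up to 0.192. The MGME1 call was also lost with no filter on low values (adjusted p = 0.0536), the same sum (0.0514), the same upper quartile (0.0735) or no intensity trend (0.087). With the block 3 of that list rose and 4 fell, and its median was -0.12.

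Of the 11 transcription factors and coactivators of nuclear mitochondrial genes, none passed in limma without a block. Their median was -0.18, and 2 were lower at an unadjusted p under 0.05. With the block 1 rose and 4 fell, where 19.7% of all genes tested rose and 20% fell. PPARGC1B, a coactivator encoded on chromosome 5, averaged 1239 ± 334 normalised counts in KO-labelled and 2614 ± 617 in WT libraries (limma adjusted p = 0.051, with the block 1.05e-04). The 13 mitochondrially encoded messengers, which the ribosome translates, had a median of -0.20, with 11 below 0, none past the limma test without a block or at an unadjusted p under 0.05 (0 genes), and 2 that fell with the block, MT-ND1 and MT-ND6. Their replicate 1 differences had a median of -0.48 in KO-labelled and -0.11 in WT libraries, where the mitochondrial ribosomal genes had -0.58 in KO-labelled and -0.75 in WT libraries. Both ribosomal RNAs were lower with the block only, MT-RNR1 by a log2 difference of -0.42 and MT-RNR2 by -0.35 (block adjusted p = 0.00686 and 0.00921), in libraries selected for polyadenylated RNA.

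The 13 genes of the mitochondrial protease and chaperone response had a median of -0.05, and 1 of them fell, HSPA9, the mitochondrial Hsp70 chaperone, which lies on chromosome 5. It averaged 27478 ± 1180 normalised counts in KO-labelled and 45463 ± 4523 in WT libraries (limma adjusted p = 0.0161), a call lost without replicates 2 or 3 of WT or of the KO-labelled group, at up to 0.0902. With the block 5 of the list rose and 4 fell, where 19.7% of all genes tested rose and 20% fell. After chromosome centring the limma adjusted p was 0.477 for HSPA9, 0.515 for GFM2 and 0.932 for MGME1. The median replicate 1 difference of the list, at -0.04 in KO-labelled and -0.17 in WT libraries, was closer to 0 than that of the mitochondrial ribosomal genes. That of the translation factors was -0.50 in KO-labelled and -0.51 in WT libraries, and that of the genes for mitochondrial DNA expression and maintenance was -0.67 in KO-labelled and -0.80 in WT libraries, so lists beside the ribosome were lower in replicate 1 as well.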

How the data were processed

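Polyadenylated RNA of 3 ACK KO and 3 WT K562 libraries was analysed. The deposited signal values are gene-level counts that the authors' table calls normalised. They are neither whole nor logged, and the normalisation is not described further. Per the submitters' processing notes, the tools were Salmon 1.1.0, STAR 2.7.2b, R 3.6.1 with DESeq2 1.26.0, FastQC 0.11.7 and SAMtools, on GRCh38. Their roles are not given. No whole reads were recovered: per library, 16.1% to 32.4% of values under 30 were on a common step (tolerance 0.02). The lowest gene mean was 3.38, as if low genes had been removed. Symbols were found for 19392 of 19498 identifiers, and GENCODE 29 gave positions for 19112 and 13771 protein-coding genes.

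The limma package (3.58.1, R 4.3.3), with an intensity trend, was run on log2 of the value plus 1 over 16658 genes with 10 or more in at least 3 of 6 libraries, with Benjamini-Hochberg adjustment. Deviations of same-numbered libraries correlated over all genes tested at 0.699, 0.521 and 0.342, each over 0.1, so a fit with the number as a block was added, whose values stand beside results they change. Unlike numbers gave 0.257 for KO 2 with WT 3 and 0.281 for KO 3 with WT 2, and pairs of number 1 with another number were negative. Both values exceed 0.1, so that limit does not tell numbers 2 and 3 apart. Over the 78 genes they were 0.678 and 0.597, against 0.834, 0.798 and 0.606 for numbers 1, 2 and 3. Bacterial counterparts were assigned by the number in the gene symbol, low numbers being counted as such. MRPL47, MRPS24 and MRPS28 were added by the universal names of ribosomal proteins. Exons of 35 of the 78 genes share bases with another gene, 12 of them on the same strand, and their values are uncertain to that extent.

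The genes, lists and tests were chosen with earlier results of these data known. Named genes were those past the threshold, the 4 largest differences each way, the 4 highest and 3 lowest means, the MRPS18 paralogs, all genes on chromosomes 5, 7 and 20, the 3 largest SD within genotypes and up to 3 per list by p.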

Additional observations from a re-analysis of the deposited data

How the results depend on the processing

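With the replicate block, which pairs libraries by number, 36 of the 78 genes passed the test (46.2%, against 39.7% of all genes tested), 32 lower and 4 higher, and 4 passed without it (5.13%, against 10.3%). The block with chromosome centring, chosen after seeing the data, gave 38 (48.7%, against 35.8%), of which 36 lower and 2 higher. Leaving out replicate 1 of both genotypes gave 29 (37.2%, against 28.4%), of which 27 lower and 2 higher. Leaving out 1 library gave 2 to 8 in all, 2 to 7 lower and 0 to 1 higher, with 8 without WT replicate 1 (10.3%, against 13.1% of all genes tested) and 2 or 3 otherwise (against 4.36% to 7.29%). Chromosome centring without the block gave 1 (against 7.98% of all genes tested), of which 1 lower and 0 higher, and scaling to the same upper quartile gave 5 lower genes. Pseudocounts of 0.5 or 5, no filter on low values, no intensity trend and scaling to the same sum gave 4 or 5. MRPS30 passed under every alternative run.

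The median of the 78 genes ranged from -0.42 to -0.0034 without 1 library. It was -0.10 with libraries scaled to the same sum, which moved the median of all genes by 0.099, and the gap between both medians stayed at -0.18. The replicate 1 difference was -0.42 in KO-labelled and -0.60 in WT libraries with the same sum, -0.44 in KO-labelled and -0.62 in WT libraries with the same upper quartile, and -0.64 to -0.49 in KO-labelled libraries without 1 of the others.

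Genes near 0 turned in sign under some alternatives. With the same sum, the log2 difference was 0.011 for MRPL43, 0.038 for MRPL53, 0.079 for MRPS16, 0.018 for MRPS18B, 0.068 for MRPS24 and 0.077 for MRPS7. With chromosome centring, with or without the block, it was -0.32 for MRPS17 and -0.038 for MGME1, and MRPS17 was at -0.066 without replicate 1 of both genotypes. Without 1 library the range was -0.62 to 0.0090 for MRPL3, -0.24 to 0.059 for MRPL43, -0.15 to 0.016 for MRPL53, -0.41 to 0.22 for MRPL55, -0.68 to 0.27 for MRPS12, -0.30 to 0.18 for MRPS16, -0.41 to 0.45 for MRPS17, -0.15 to 0.082 for MRPS24 and -0.54 to 0.37 for MRPS7. The cause of these changes was not tested. Read depth is unknown, so no floor or counting error can be given.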

Other observations

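MRPS31, a mitochondria-specific small-subunit gene on chromosome 13, has related pseudogenes, MRPS31P4 and MRPS31P5, with values of their own in the table. MRPS31P4 averaged 62.9 ± 6.37 normalised counts in KO-labelled and 49.4 ± 25.9 in WT libraries, and MRPS31P5 averaged 349 ± 48.2 in KO-labelled and 382 ± 163 in WT libraries (SD, n = 3 each). MRPS31 had 728, 973 and 919 normalised counts in KO-labelled libraries, against 929, 1302 and 1255 in WT libraries. How reads were divided between these copies was not tested, and the value of MRPS31 is uncertain to that extent.

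Among the transcription factors whose motifs were searched, YY1 averaged 8870 ± 1397 normalised counts in KO-labelled and 7655 ± 1173 in WT libraries (limma adjusted p = 0.547, with the block 0.0231), and so was the factor list's 1 rise with the block. NRF1 averaged 1166 ± 129 in KO-labelled and 1122 ± 88.5 in WT libraries (adjusted p = 0.883), and GABPA, an ETS factor, averaged 3513 ± 483 in KO-labelled and 3387 ± 689 in WT libraries (adjusted p = 0.889).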
